A study of Mus musculus with 2 samples.

Results

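LIM homeodomain factors are transcription factors that carry a pair of LIM domains, which bind cofactors, next to a homeodomain, which binds DNA. The 10 members examined here were Isl1, Isl2, Lhx1, Lhx2, Lhx3, Lhx4, Lhx5, Lhx9, Lmx1a and Lmx1b, chosen by gene symbol from the 21937 genes counted in each library. Their unique molecular identifiers (UMIs, one tag per captured transcript) and the cells that held them were counted in each annotated cell type and each cell suspension, with attention to their use in neural and in mesenchymal cells. The embryos were mouse embryos at E11.5 that all carried a piggyBac-delivered EGFP transgene under the CAG promoter, which is active in most tissues, linked to a DNA barcode. The founders, each 1 embryo, whose suspensions are F0_8 and F0_9, had received mRNA of the transposase mPBase by electroporation and the donor DNA by injection as fertilized eggs. The F1 embryos are of the next generation, so this handling cannot be told apart from generation in any comparison of founders with F1. One embryo of the F1 generation gave F1_1, and the cells of 2 F1 embryos had been mixed as an artificial mosaic to give F1_mix. All 4 were labelled with separate oligos and captured together as 1 droplet library, so that founders and F1 embryos are compared as 2 suspensions against 2.

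LIM homeodomain proteins act in combination. A LIM domain binds the adaptor Ldb1, Ldb1 binds a second copy of itself, and the resulting complex joins LIM homeodomain proteins of the same or different kinds on DNA, while LIM-only (Lmo) proteins compete for Ldb1. In the developing spinal cord and hindbrain the set of LIM homeodomain genes that a postmitotic neuron uses is one of the classical descriptions of its class: Isl1 and Isl2 with Lhx3 and Lhx4 in motor neurons, Lhx3 and Lhx4 without the Isl genes in a class of ventral interneurons, Lhx1 and Lhx5 in several interneuron classes, Lhx2 and Lhx9 in dorsal neurons of the Atoh1 lineage, and Lmx1b in dorsal excitatory and serotonergic neurons. Outside the nervous system Lmx1b sets dorsal identity in limb mesenchyme, Lhx2 and Lhx9 act in the limb below the apical ridge, Lhx9 acts in the gonad, Lhx1 in the nephric duct, and Isl1 in the heart field, hindlimb and gut mesenchyme.

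The cell types are clusters named by the study. Across the 12 deeply sequenced types (4309 cells) the median depth ran from 10898.5 to 29076 gene UMIs per cell, while the other 4, Endodermal Progenitor, Foregut, Hepatocyte and Midgut (1369 cells), had medians of 721.5 to 1674 gene UMIs and of 23.0 to 55.9% mitochondrial UMIs. Names were kept as labels of clusters because markers did not always follow them. Pan-neuronal markers summed to 75.04 UMIs per 10000 outside mitochondrial genes in Neuroectoderm/Glia and to 56.9 in CNS Neuron, so both are populations of neurons by those genes. The progenitor and glial markers chosen for Neuroectoderm/Glia were highest in Neuronal Progenitor (40.2), the cartilage markers were slightly higher in Gut Mesenchyme/Amniotic Mesoderm (6.87) than in Chondrocyte (5.35), and none of the 4 shallow types was the highest for its own markers. Ependymal Cell, counted here as neural, had its own markers at 16.1 and was also the highest of all types for the Hepatocyte markers, at 13.7 (0.0211 to 32.4 over the suspensions). Both lists hold the gene Ttr, whose part in the sums is not given apart, so the Hepatocyte sum was not read as a liver trait of this cluster. A level is the number of UMIs of a gene per 10000 gene UMIs summed over cells, and levels are compared between cell types within a gene, because 3′ counting does not make levels of different genes comparable. Intervals of levels (Poisson) and shares (exact binomial) cover counting error at 95% only. No test was made between cell types, whose definition used the expression of all genes.

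The start regions of 5 members are printed because they are the members that the results on neurons and on limb-type mesenchyme turn on, and because the sequence differs between the paralogues. They are the 250 bases before the annotated start, read from RefSeq on GRCm38.p6 and given 5′ to 3′ on the strand of the gene, with TGACGT (the core letters of the CRE element), searched on both strands, in capitals. Isl1 lies at chr13:116298270-116309688, Isl2 at chr9:55538677-55547667, Lhx1 at chr11:84517975-84525534, Lhx2 at chr2:38339271-38369737 and Lhx9 at chr1:138825186-138848839, and the printed regions of Isl1 and Lhx1 lie directly upstream of the gene. That of Lhx2 runs into the annotated gene by its last bases, and those of Isl2 and Lhx9 lie within the span of the gene, before the start of a shorter annotated transcript.
Isl1 (chr13:116309689-116309938, minus strand): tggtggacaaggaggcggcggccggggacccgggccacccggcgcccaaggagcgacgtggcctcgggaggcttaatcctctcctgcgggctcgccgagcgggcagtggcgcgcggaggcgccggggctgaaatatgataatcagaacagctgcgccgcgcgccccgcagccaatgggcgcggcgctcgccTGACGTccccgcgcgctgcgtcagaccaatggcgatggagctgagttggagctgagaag
Isl2 (chr9:55540899-55541148, plus strand): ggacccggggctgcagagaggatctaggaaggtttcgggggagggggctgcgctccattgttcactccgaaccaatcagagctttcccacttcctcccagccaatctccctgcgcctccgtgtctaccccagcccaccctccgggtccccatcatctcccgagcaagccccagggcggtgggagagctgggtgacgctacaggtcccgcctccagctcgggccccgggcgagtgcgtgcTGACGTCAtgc
Lhx1 (chr11:84525535-84525784, minus strand): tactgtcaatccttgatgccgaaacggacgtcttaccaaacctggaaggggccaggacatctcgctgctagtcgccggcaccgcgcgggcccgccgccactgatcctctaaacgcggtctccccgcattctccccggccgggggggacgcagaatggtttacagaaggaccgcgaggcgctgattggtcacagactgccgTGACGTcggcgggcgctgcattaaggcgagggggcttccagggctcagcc
Lhx2 (chr2:38339031-38339280, plus strand): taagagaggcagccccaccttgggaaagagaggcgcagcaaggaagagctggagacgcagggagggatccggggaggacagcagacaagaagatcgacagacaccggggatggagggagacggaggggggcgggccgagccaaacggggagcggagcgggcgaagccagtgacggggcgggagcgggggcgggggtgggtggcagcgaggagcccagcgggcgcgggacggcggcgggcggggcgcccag
Lhx9 (chr1:138842445-138842694, minus strand): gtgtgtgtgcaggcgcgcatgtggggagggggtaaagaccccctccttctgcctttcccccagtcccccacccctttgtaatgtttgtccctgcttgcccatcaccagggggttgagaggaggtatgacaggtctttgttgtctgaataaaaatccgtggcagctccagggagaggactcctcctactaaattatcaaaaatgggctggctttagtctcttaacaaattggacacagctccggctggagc
Of the 10 members, 9 had an entry in this table, with 11 entries in all. The 6 letters occurred in 5 members: Isl1, Isl2, Lhx1, Lhx4 and Lmx1b. They occurred in 6.47% of all 32851 entries. In Isl2 both strands matched, so that the matches overlap as the palindrome TGACGTCA just before the start. Member regions held 53.6 to 72.8% G and C against a median of 52.4% over all entries. The motif was picked after the sequences had been looked at, and a match describes letters only.

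Every member was detected, and 9 of the 10 reached their highest level among the deep types in the pair of neuron clusters, CNS Neuron or Neuroectoderm/Glia. Lmx1a had its highest pooled level in Ependymal Cell, with a range that overlapped that of Erythrocyte, and the ranges of Lmx1b in neurons and in mesenchyme overlapped. The totals over all 5678 typed cells ran from 164 UMIs in 49 cells for Lhx3 to 4885 UMIs in 747 cells for Lhx2. The totals of the other members were 3261 UMIs for Lhx9, 3145 for Isl1, 2947 for Lhx1, 2347 for Lhx5, 1595 for Lmx1b, 875 for Lmx1a, 277 for Lhx4 and 192 for Isl2. As a reference for transcripts that reach droplets of other cells, Erythroblast (144 cells), the deepest type with a median of 29076 gene UMIs, held Isl1 in 2 cells, Lhx1 in 6 (4.17%), Lhx2 in 4, Lhx5 in 2, Lhx9 in 3 and Lmx1a in 3, and none of Lhx3, Lhx4 and Lmx1b.

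**Figure D1:**
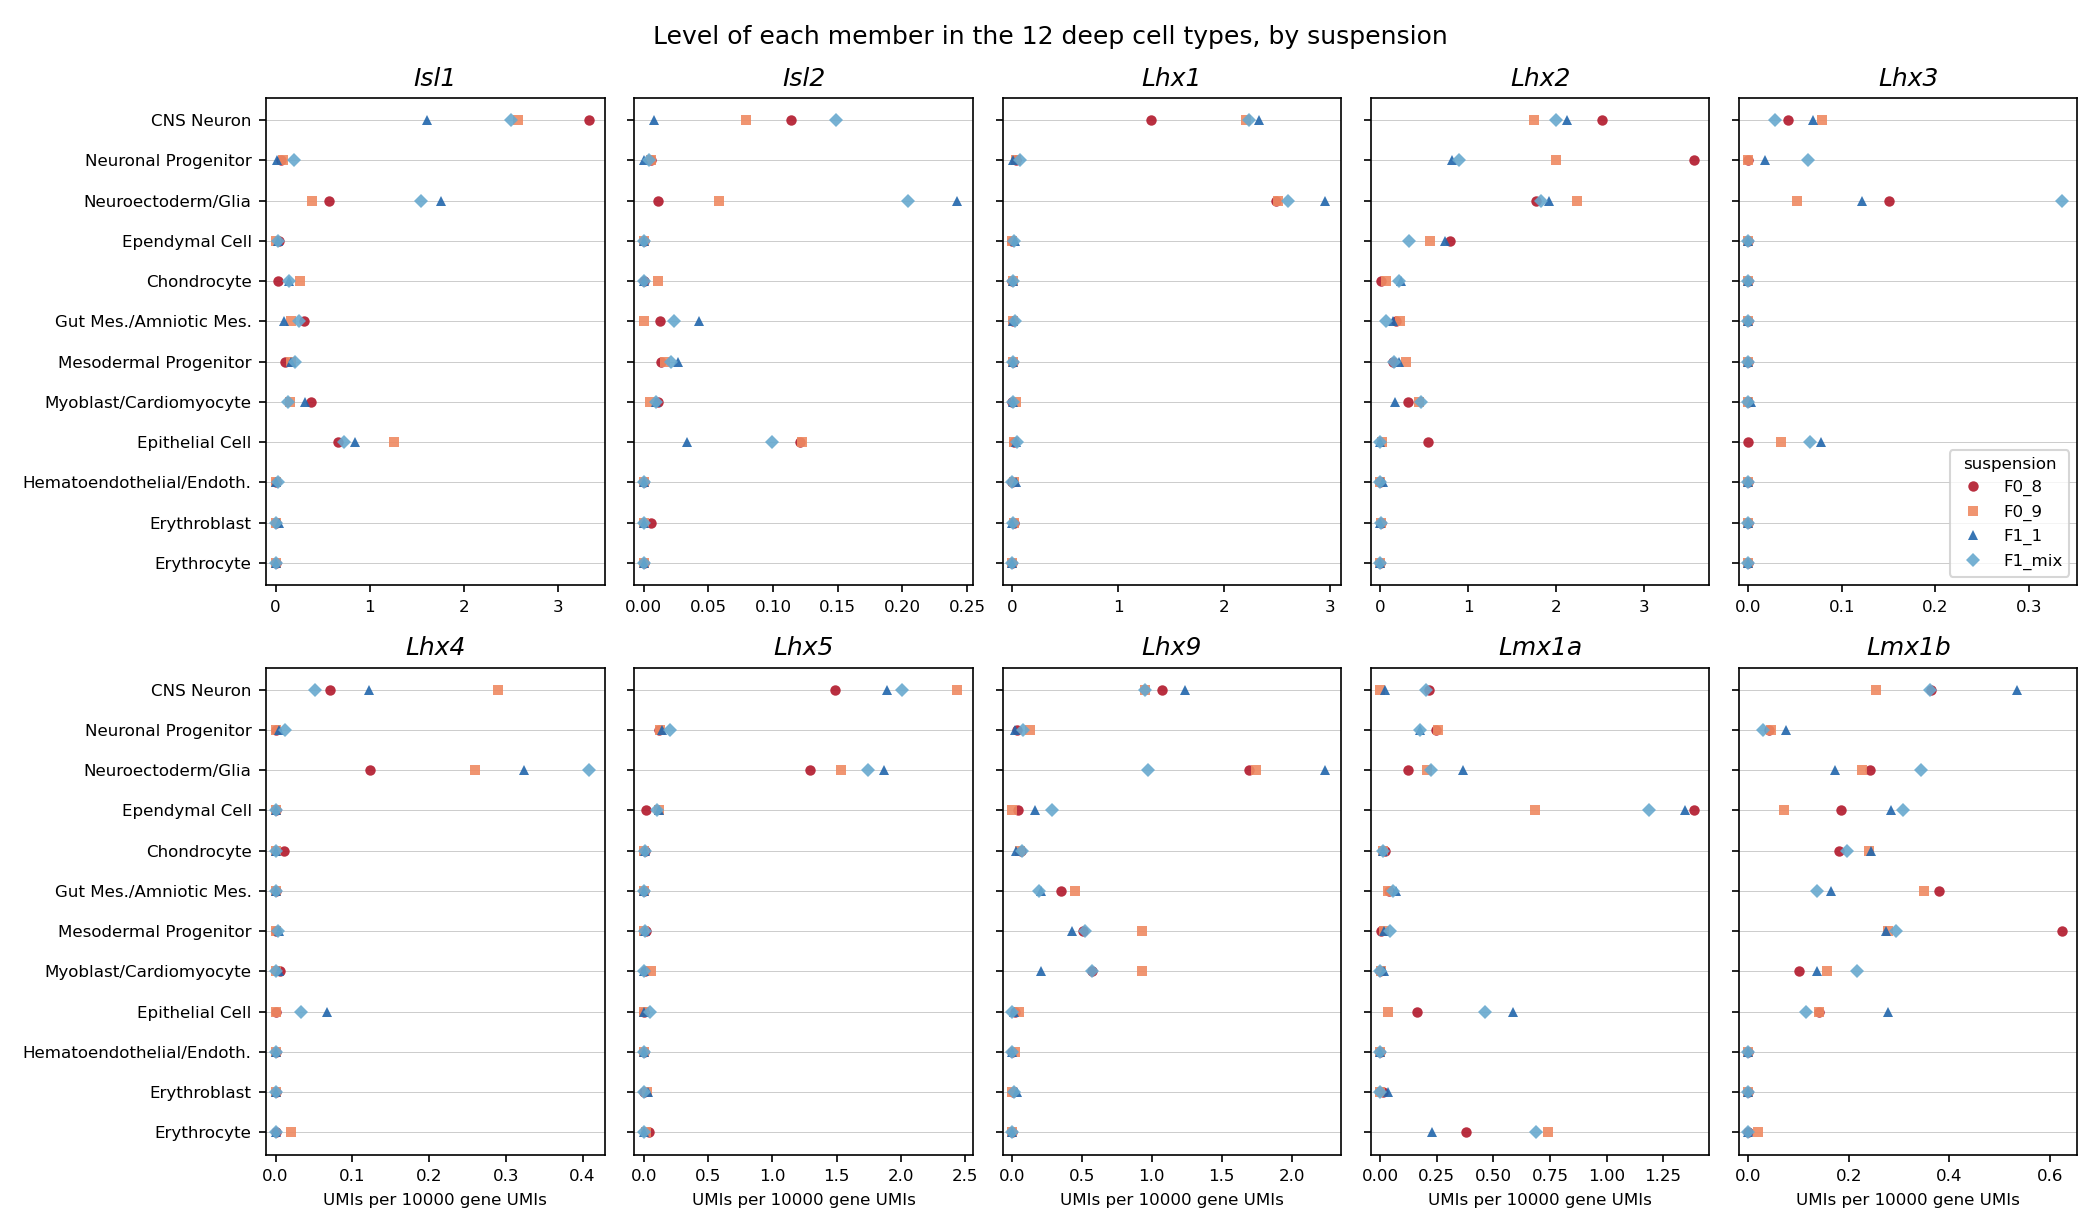
Level of each LIM homeodomain gene (UMIs per 10000 gene UMIs, horizontal axis of each panel) in the 12 deep cell types (vertical axis), with 1 marker for each of the 4 suspensions. Lhx1 and Lhx5 stand high in CNS Neuron and Neuroectoderm/Glia and near 0 elsewhere, Lhx9 and Lmx1b extend into the mesenchymal types, and Lmx1a stands high in Ependymal Cell, with a marker of that type below the highest ones of Erythrocyte.

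Isl1 and Isl2, the Islet factors of motor neurons, peripheral sensory and autonomic neurons, had their highest levels in neurons, with a further signal in Epithelial Cell. In CNS Neuron the level of Isl1 was 3.33 (F0_8) and 2.57 (F0_9) in founders and 1.61 (F1_1) and 2.496 (F1_mix) in F1, giving 2.52 UMIs per 10000 (95% Poisson interval 2.39 to 2.65) over all cells. In Neuroectoderm/Glia it was 0.5699 (F0_8) and 0.382 (F0_9) in founders and 1.76 (F1_1) and 1.55 (F1_mix) in F1. The F1 suspensions were the lower values in CNS Neuron, where F1_mix came close to F0_9, and the higher ones in Neuroectoderm/Glia. Epithelial Cell followed with 0.872 (0.663 to 1.26 over the suspensions), which overlapped Neuroectoderm/Glia but not the next type, Myoblast/Cardiomyocyte at 0.231 (0.135 to 0.379). Gut Mesenchyme/Amniotic Mesoderm (0.223), Mesodermal Progenitor (0.1597) and Chondrocyte (0.1395) overlapped it and each other. Isl1 was concentrated in few cells. In CNS Neuron 86 of 532 cells (16.2%, and 14.6% after thinning each cell to 5000 UMIs) held it, with a median of 13 and a maximum of 60 UMIs per such cell, whereas in Neuronal Progenitor 25 of 597 cells held it with a median of 1 and a maximum of 23 UMIs. Isl2 was rarer. Its level was 0.0108 (F0_8) and 0.0579 (F0_9) in founders and 0.242 (F1_1) and 0.204 (F1_mix) in F1 in Neuroectoderm/Glia and 0.114 (F0_8) and 0.0786 (F0_9) in founders and 0.00764 (F1_1) and 0.149 (F1_mix) in F1 in CNS Neuron, and its ranges in these types and in Epithelial Cell (0.0853) overlapped.

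Companions were read as genes with 50 or more UMIs in the cells with the member and a level at least 1.5 times that in the cells without it in each suspension with at least 10 such cells, which is a description with no test. For Isl1 in CNS Neuron, 160 of 4725 genes (3.39%) met this rule, at median depths of 14558.5 gene UMIs in the cells with it and 10518.5 in those without. Among the first by ratio were Tlx2, a homeobox gene of neural crest derived neurons (379 UMIs against 2), and Ppp1r1c (290 UMIs against 2). Cdhr1 (64 UMIs against 2), the calcium channel gene Cacna1e (level 0.981 against 0.0146) and Ccer2 (54 UMIs against 2) were also among them. Of the 5 genes of the sensory ganglion list, 3 had enough UMIs in the cells with Isl1 to be read, a condition that itself favours genes high in those cells, and these met the rule, among them Pou4f1, a factor of sensory neurons (level 3.76 against 0.662). Pou4f1 is also on the dorsal excitatory list, of which it and Tlx3 (level 3.94 against 1.01) were the 2 of 3 readable genes that met it. None of the 5 listed motor neuron genes (Mnx1, Slc18a3, Chat, Slc5a7, Prph) had enough UMIs in these cells to be read.

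In Neuroectoderm/Glia, a type added after the data were seen, the first genes beside Isl1 were others. There 54 of 2953 genes (1.83%) met the rule in the 3 suspensions with enough cells, and it cannot be read if any 1 of these is left out. They were led by its paralogue Isl2 (level 0.846 against 0.00952), Dlc1 (level 4.96 against 0.105) and the cyclin gene Ccnd1 (level 1.13 against 0.0609). Slc18a3, the vesicular acetylcholine transporter of motor neurons, stood at 0.788 against 0.05903, and was the gene of the 5 on the motor neuron list that met the rule, of 2 with enough UMIs. The forebrain gene Six3 (1.61 against 0.554) and the GABA enzyme gene Gad2 (4.29 against 2.72) were also higher in level in the cells with Isl1. None of the first 6 genes of one cluster was among the first 6 of the other. Such short cuts of longer sets can part by the ranking alone. The overlap of the full sets is not given, and no test compared the clusters.

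In mesenchyme Isl1 was found in few cells, 64 of 644 cells in Myoblast/Cardiomyocyte and 55 of 674 cells in Gut Mesenchyme/Amniotic Mesoderm. In Myoblast/Cardiomyocyte 25 of 4667 genes (0.536%) met the rule, led by Pou4f1 (level 0.378 against 0.00451), Thsd7b (1.16 against 0.0821) and the smooth muscle inhibitor gene Ppp1r14a (1.47 against 0.143). Pdlim3, Rprm and Zfpm2, a cofactor of GATA factors in the heart (1.53 against 0.3601), followed. None of the readable genes of the heart field list (0 of 2), the limb mesenchyme list (0 of 6) or the gut mesenchyme list (0 of 2) met it. In Gut Mesenchyme/Amniotic Mesoderm, added after the data were seen, 33 of 3387 genes (0.974%) met it, with Sntg1 (1.43 against 0.06296), the pericyte gene Rgs5 (0.866 against 0.0848) and Tcf21, a factor of visceral mesenchyme (0.841 against 0.127), at the head. There 3 suspensions had enough cells, and the rule cannot be read if any 1 of them is left out. Here Hand2 (0.891 against 0.3499) met it as the 1 readable gene of the heart field list, Foxf1 (1.27 against 0.371) as 1 of 2 of the gut mesenchyme list, and none of 4 of the limb mesenchyme list. In Epithelial Cell, also added, 52 of 151 cells held Isl1 (34.4%, the highest share among the deep types) and 34 of 3596 genes (0.945%) met the rule. This set too rests on 3 suspensions and cannot be read if any 1 of them is left out. There Stmn2, a neuronal microtubule gene (1.16 against 0.0607), Mgp (0.826 against 0.08495) and the chloride channel gene Ano1 (0.612 against 0.0971) led.

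Lhx3 and Lhx4, partners of the Islet factors in motor neurons and markers of a ventral interneuron class, had, with Isl2, the fewest UMIs of the members. Lhx3 stood at 0.151 (F0_8) and 0.0521 (F0_9) in founders and 0.121 (F1_1) and 0.335 (F1_mix) in F1 in Neuroectoderm/Glia, where 18 of 502 cells held it. In CNS Neuron it stood at 0.05397 (0.0286 to 0.0786). Lhx4 stood at 0.124 (F0_8) and 0.2605 (F0_9) in founders and 0.323 (F1_1) and 0.408 (F1_mix) in F1 in Neuroectoderm/Glia and at 0.136 (0.0515 to 0.2904) in CNS Neuron. For both genes the ranges of the neuron clusters overlapped, and 7 of the 12 deep types held no UMI of Lhx3 and 4 none of Lhx4. In the mesenchymal types the limit that 0 counts allow for Lhx3 was 0.00331 in Gut Mesenchyme/Amniotic Mesoderm (3 counts over all cells). Neither gene reached 50 cells in a type, the lower limit for reading companions, and none were read.

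Lhx1 and Lhx5, factors of inhibitory and commissural interneurons, were nearly restricted to the neuron clusters. Lhx1 was 2.49 (F0_8) and 2.51 (F0_9) in founders and 2.96 (F1_1) and 2.603 (F1_mix) in F1 in Neuroectoderm/Glia and 1.31 (F0_8) and 2.21 (F0_9) in founders and 2.33 (F1_1) and 2.23 (F1_mix) in F1 in CNS Neuron. The lowest value of the first lies above the highest of the second, and the next type, Neuronal Progenitor, was at 0.0401, a level 50.7-fold below CNS Neuron. 257 of 502 cells of Neuroectoderm/Glia held a UMI of it (51.2%, thinned 44.4%). Lhx5 was 1.49 (F0_8) and 2.44 (F0_9) in founders and 1.89 (F1_1) and 2.01 (F1_mix) in F1 in CNS Neuron and 1.29 (F0_8) and 1.53 (F0_9) in founders and 1.87 (F1_1) and 1.74 (F1_mix) in F1 in Neuroectoderm/Glia, which overlap, followed by 0.1498 in Neuronal Progenitor and 0.0877 in Ependymal Cell. In the mesenchymal types Lhx1 was found in 1.01 to 1.86% of cells, below the 4.17% of Erythroblast cells at their greater depth, and was not read as expression.

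Genes of inhibitory interneurons stood beside both, and of the 5 genes of that list Pax2 and Pax8 met the rule of 3 readable ones for either member, Lbx1 being the third. In Neuroectoderm/Glia 69 of 7563 genes (0.912%) met the companion rule for Lhx1, at median depths of 11300 gene UMIs in the cells with it and 11480 in those without. Gata2 (62 UMIs against 3) and Tal1 (level 0.277 against 0.0203), which act together in inhibitory neurons of the ventral cord and midbrain, came first. Slc6a5, the glycine transporter of inhibitory neurons (level 1.504 against 0.112), Pax2, a factor of inhibitory interneurons (level 3.18 against 0.254), Lhx5 (level 2.87 against 0.2304) and Rpp25 (level 0.544 against 0.0474) followed. Of the ventral interneuron list, 5 of the 7 genes with enough UMIs met the rule (En1, Foxd3, Gata2, Gata3, Tal1), of 9 listed. Of the 5 transmitter genes, the GABA and glycine genes Gad1, Gad2, Slc32a1 and Slc6a5 met it, and Slc17a6, the vesicular glutamate transporter of excitatory neurons, did not.

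For Lhx5 in CNS Neuron the contrast of Pax2 was the widest. The level of Pax2 was 6.58 against 0.0449 in cells with and without Lhx5, or 1535 UMIs against 17. Slc6a5 gave 240 UMIs against 3, and Pax8, a relative of Pax2, gave a level of 0.814 against 0.0159. Klhl14, Lamp5 and Lhx1 (level 5.097 against 0.145) completed the first 6 of 84 of 6694 genes (1.25%). The same 4 transmitter genes met the rule as for Lhx1, and 4 of 7 ventral interneuron genes (En1, Foxd3, Gata3, Tal1). Median depths were 10312 gene UMIs in the cells with it and 11217 in those without.

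Lhx2 and Lhx9, a pair of paralogues with roles in forebrain and eye, in Atoh1-lineage neurons, in the limb bud and in the gonad, were shared between neural and mesenchymal cells more evenly than Lhx1 and Lhx5. Lhx2 was 2.52 (F0_8) and 1.74 (F0_9) in founders and 2.12 (F1_1) and 1.998 (F1_mix) in F1 in CNS Neuron and 1.77 (F0_8) and 2.23 (F0_9) in founders and 1.92 (F1_1) and 1.82 (F1_mix) in F1 in Neuroectoderm/Glia. In Neuronal Progenitor it was 3.56 (F0_8) and 1.99 (F0_9) in founders and 0.813 (F1_1) and 0.895 (F1_mix) in F1, with both founders above both F1 suspensions. These 3 ranges overlap, and the lowest of them does not reach Ependymal Cell at 0.603 (0.328 to 0.794). In the progenitors Lhx2 was held by 176 of 597 cells (29.5%). Lhx9 was 1.69 (F0_8) and 1.75 (F0_9) in founders and 2.24 (F1_1) and 0.9699 (F1_mix) in F1 in Neuroectoderm/Glia and 1.07 (F0_8) and 0.9498 (F0_9) in founders and 1.24 (F1_1) and 0.9504 (F1_mix) in F1 in CNS Neuron, and in contrast to Lhx2 it stood at 0.0649 in Neuronal Progenitor.

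Lhx2 stood beside Eomes both in neurons and in progenitors. In CNS Neuron 62 of 5169 genes (1.2%) met the companion rule, led by the cortical and cerebellar factor Eomes (level 0.8901 against 0.00857), Tfap2d (1.35 against 0.01500), Lhx9 (4.04 against 0.107) and Barhl2 (1.43 against 0.0386), and then by Fezf1 and the Wnt agonist gene Rspo3. All 3 genes of the Atoh1 lineage list met it: Atoh1 itself (1.33 against 0.165), Barhl1 (1.36 against 0.204) and Barhl2. Slc17a6 met it too (1.59 against 0.403), which places Lhx2 beside a glutamatergic gene and Lhx1 and Lhx5 beside GABA and glycine genes. In Neuronal Progenitor, added after the data were seen, 107 of 7055 genes (1.52%) met it. The first by ratio were Emx1 (273 UMIs against 2), a factor of the dorsal forebrain, Eomes (168 UMIs against 1), Adamts18 (level 0.395 against 0.00662) and Fezf2 (level 0.995 against 0.0182), a factor of forebrain progenitors and deep-layer cortical neurons. Of the forebrain and eye list Emx2 (1.13 against 0.0695), the eye field gene Rax (0.243 against 0.0314) and Six3 (0.658 against 0.1505) were among the 4 of 5 readable genes that met the rule, while Pax6 (1.204 against 0.6499) did not.

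For Lhx9 in Neuroectoderm/Glia, 52 of 5372 genes (0.968%) met the rule. Samd3 (105 UMIs against 1), Tfap2d (98 UMIs against 3) and Rasgrp1 (62 UMIs against 0) came first, then Etv1 (level 0.665 against 0.01800), Tbr1, a factor of early glutamatergic neurons (level 1.37 against 0.0382), and Barhl2 (level 1.83 against 0.0945). Slc17a6 (3.64 against 1.39) and Emx2 (0.631 against 0.153) also met it. Tfap2d and Barhl2 were named for Lhx2 in CNS Neuron as well.

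In mesenchyme the same paralogues stood beside distal limb genes. Lhx9 was 0.506 (F0_8) and 0.9297 (F0_9) in founders and 0.432 (F1_1) and 0.525 (F1_mix) in F1 in Mesodermal Progenitor and 0.569 (F0_8) and 0.929 (F0_9) in founders and 0.207 (F1_1) and 0.573 (F1_mix) in F1 in Myoblast/Cardiomyocyte. It was 0.353 (F0_8) and 0.452 (F0_9) in founders and 0.208 (F1_1) and 0.194 (F1_mix) in F1 in Gut Mesenchyme/Amniotic Mesoderm, where both founders lay above both F1 suspensions. The order of the 3 types does not hold beyond the spread between suspensions, and Chondrocyte was lower at 0.0541 (0.0256 to 0.06903). Lhx2 was 0.312 (F0_8) and 0.439 (F0_9) in founders and 0.173 (F1_1) and 0.459 (F1_mix) in F1 in Myoblast/Cardiomyocyte, 0.193 (0.144 to 0.289) in Mesodermal Progenitor and 0.159 (0.0708 to 0.226) in Gut Mesenchyme/Amniotic Mesoderm.

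For Lhx2 in Myoblast/Cardiomyocyte 49 of 6474 genes (0.757%) met the rule. The connexin gene Gja3 (level 0.383 against 0.00396), Mcub (0.248 against 0.00594) and Lhx9 (2.26 against 0.113) led, followed by Hox genes of the distal limb, Hoxd13 (1.37 against 0.0841), Hoxa13 (0.878 against 0.0634) and Hoxd12 (0.809 against 0.0584). Of the 7 limb mesenchyme genes 4 met it: the hindlimb factors Tbx4 (0.409 against 0.09998) and Pitx1 (1.29 against 0.548), the bud growth factor Fgf10 (0.456 against 0.148) and Wnt5a (1.77 against 0.684). For Lhx9 in Mesodermal Progenitor 41 of 6350 genes (0.646%) met it, led by the proton pump subunit gene Atp6v1g3 (level 0.467 against 0.00651), Lhx2 (0.882 against 0.0221), Hoxd13 (1.08 against 0.112) and the LIM-only gene Lmo1 (0.347 against 0.0417), then Hoxa13 and Hoxd12. There Tbx4 (0.746 against 0.151) was the limb mesenchyme gene that met it, 1 of the 7. In Gut Mesenchyme/Amniotic Mesoderm, added after the data were seen, 63 of 4700 genes (1.34%) met it, with the joint gene Gdf5 (0.497 against 0.0546), Luzp2, Hoxa11 (0.699 against 0.125), Hoxd12, Lhx2 and Hoxa13 as the first 6, and with Tbx4 and Pitx1 as the 2 of 6 readable limb mesenchyme genes. This set rests on 3 suspensions with enough cells and cannot be read if any 1 of them is left out. Hoxd12, Hoxa13 and the paralogue of the pair were thus among the first 6 in all 3 mesenchymal clusters, although the clusters carry different names.

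Lmx1b, which sets the dorsal side of the limb and acts in dorsal and serotonergic neurons, was spread widely. It was 0.363 (F0_8) and 0.254 (F0_9) in founders and 0.534 (F1_1) and 0.361 (F1_mix) in F1 in CNS Neuron and 0.624 (F0_8) and 0.278 (F0_9) in founders and 0.273 (F1_1) and 0.294 (F1_mix) in F1 in Mesodermal Progenitor. Gut Mesenchyme/Amniotic Mesoderm had 0.3803 (F0_8) and 0.3502 (F0_9) in founders and 0.165 (F1_1) and 0.137 (F1_mix) in F1. The ranges of these 3 types and of Neuroectoderm/Glia (0.249) overlap, and so do those of Ependymal Cell (0.214), Chondrocyte (0.214), Epithelial Cell (0.182) and Myoblast/Cardiomyocyte (0.163) each with the next in that order. Neuronal Progenitor had a lower level, 0.0472 (0.0281 to 0.0747), whose range met that of Ependymal Cell (0.0709 to 0.308). In each type cells held few UMIs of it: in Mesodermal Progenitor 91 of 496 cells did, with a median of 2 and a maximum of 21 UMIs.

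The genes beside Lmx1b were read in neurons and in mesenchyme, and the overlap of the full sets is not given. In CNS Neuron, where 3 suspensions had enough cells and the rule cannot be read if any one of these is left out, 59 of 3008 genes (1.96%) met the rule. They were led by the homeobox genes Tlx1 (level 1.21 against 0.0167) and Tlx3, which selects the excitatory fate in the dorsal cord (level 6.66 against 0.983), followed by Peg10, Hs3st3b1, Tpm2 and Prrxl1, a sensory circuit factor (level 1.32 against 0.305). Of the 4 dorsal excitatory genes 3 met it, the third being Lbx1 (1.16 against 0.324). In Mesodermal Progenitor 23 of 6054 genes (0.38%) met it, led by Shox2, a regulator of proximal limb skeleton (level 3.18 against 0.531), Rasgef1b (1.301 against 0.229), Sall1 (0.285 against 0.0639) and the semaphorin receptor gene Nrp2 (3.02 against 0.771), then Pitx1 and Tbx18. The limb factors Tbx5 (0.833 against 0.3104), Tbx4 (0.565 against 0.203) and Pitx1 (1.93 against 0.503) were the 3 of 6 listed limb genes with enough UMIs that met it. In Gut Mesenchyme/Amniotic Mesoderm, added after the data were seen, 10 of 5378 genes (0.186%) did, with Olfm3 (0.493 against 0.0105), Osr2 (0.853 against 0.1401) and Shox2 (3.09 against 0.835) first.

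Lmx1a, a factor of the roof plate and of midbrain dopaminergic progenitors, was the member whose highest pooled level among the deep types was not in a neuron cluster. In Ependymal Cell it was 1.38 (F0_8) and 0.686 (F0_9) in founders and 1.35 (F1_1) and 1.19 (F1_mix) in F1, with 43 of 137 cells holding it. In this type, added after the data were seen and below the limit of 50 cells kept elsewhere, 116 of 2157 genes (5.38%) met the companion rule in the 3 suspensions with enough cells. The rule cannot be read there if any 1 of these is left out. Rspo3 (level 8.83 against 0.0625) and Rspo2 (4.51 against 0.0703), secreted Wnt agonists, led, with Wnt3a (60 UMIs against 0), Gmnc, a factor of multiciliated cells (55 UMIs against 0), Ooep (1.62 against 0.0469) and Wnt1 (1.84 against 0.0547) next. Of the 4 roof plate genes, Wnt1 and Msx1 met it of 3 with enough UMIs. In Epithelial Cell Lmx1a was 0.161 (F0_8) and 0.0349 (F0_9) in founders and 0.588 (F1_1) and 0.461 (F1_mix) in F1, with both F1 suspensions above both founders, and the edgeR log2 difference of founders minus F1 was -2.49 (SE 0.47, n = 2 and 2, adjusted p = 0.108), which was not called.

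A second signal of Lmx1a lay in Erythrocyte, red cells with 69.3% of their UMIs in globin genes. Its level there was 0.379 (F0_8) and 0.742 (F0_9) in founders and 0.228 (F1_1) and 0.687 (F1_mix) in F1, from 88 UMIs in 42 of 60 cells (70%, and 18.3% at 5000 UMIs per cell). Per 10000 UMIs outside globin genes the level was 1.85 (0.559 to 2.99 over the suspensions), above the 1.16 of Ependymal Cell over all gene UMIs, and with globin genes counted the ranges of these types overlapped. Erythroblast, at a greater depth, held 3 UMIs in 3 of 144 cells. No other member exceeded 2 UMIs in Erythrocyte.

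The division of each member between the neural types (CNS Neuron, Neuronal Progenitor, Neuroectoderm/Glia and Ependymal Cell) and the mesenchymal types (Chondrocyte, Gut Mesenchyme/Amniotic Mesoderm, Mesodermal Progenitor and Myoblast/Cardiomyocyte) was read from UMI sums. All genes together had 39.3% of their UMIs on the neural side. Lhx3 (99.3%), Lhx5 (98.8%), Lhx1 (98.6%) and Lhx4 (97.6%) lay almost wholly there. Lmx1a (88.6%), Lhx2 (83.4%, 75.02 to 90.5% over the suspensions), Isl1 (75.9%, 66.7 to 80.4%) and Isl2 (72.8%) were intermediate. Lhx9 was divided about evenly at 53.1% (42.6 to 63.3%), and Lmx1b was the member below the share of all genes at 33.9% (27.2 to 40.6%, the highest suspension reaching past the pooled share of all genes). The paralogue pairs were thus not alike in their division: Lhx2 lay above Lhx9 and Lmx1a above Lmx1b in every suspension. These sums depend on how many cells of each type were captured, and Lhx9 came to 66.3% and Lmx1b to 46.2% where the levels of the 4 types on each side were given equal weight, where the share of all genes is an even one by construction, so that Lmx1b again lay below it.

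**Figure D2:**
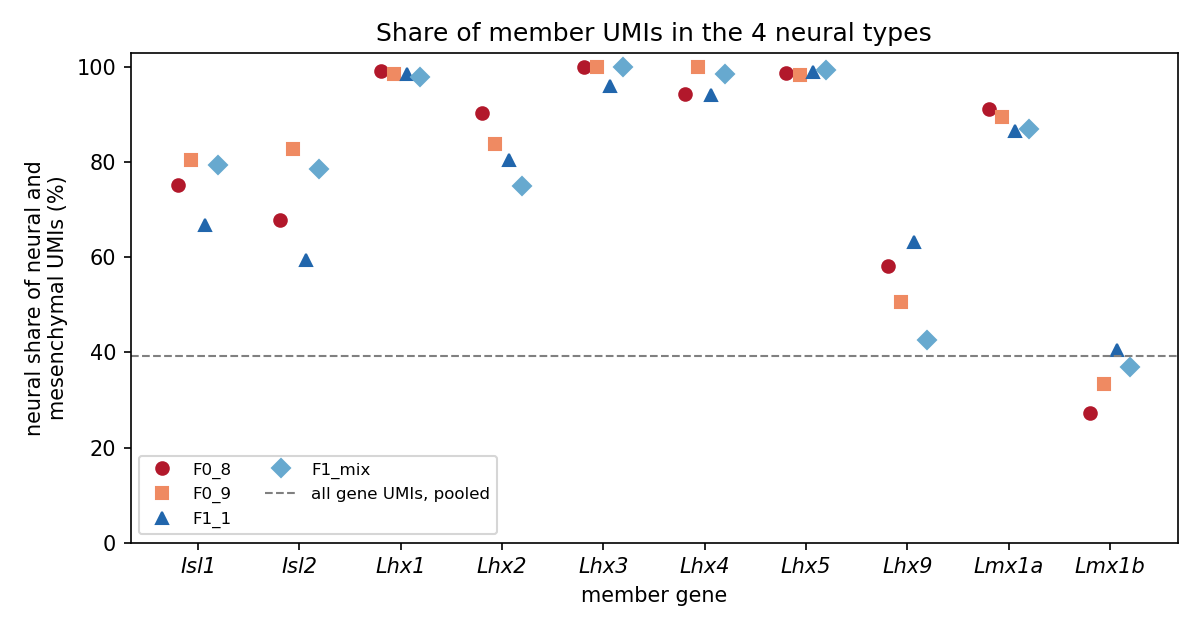
Share of the neural and mesenchymal UMIs of each LIM homeodomain gene that lay in neural types (percent, vertical axis; genes on the horizontal axis), with 1 marker per suspension and a dashed line at the share of all gene UMIs, 39.3%. Lhx1, Lhx3, Lhx4 and Lhx5 sit near the upper end, Lhx9 near the middle and Lmx1b near the line.

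Single neurons mostly carried 1 kind of LIM homeodomain gene. The members were taken as the 5 paralogue pairs Isl1/Isl2, Lhx1/Lhx5, Lhx2/Lhx9, Lhx3/Lhx4 and Lmx1a/Lmx1b. In CNS Neuron 76 of 532 cells (14.3%) held no UMI of any, 351 (65.98%) held those of 1 pair, 96 of 2 pairs and 9 of more. In Neuroectoderm/Glia 43 of 502 cells held none, 371 (73.9%) held 1 pair, 83 held 2 and 5 more. Neuronal Progenitor differed, with 317 of 597 cells (53.1%) without a member at a median depth of 13388 gene UMIs, against 10898.5 in CNS Neuron. The pair Lhx1/Lhx5 was the most frequent in both neuron clusters, in 250 cells of CNS Neuron and 283 of Neuroectoderm/Glia, and Lhx2/Lhx9 in Neuronal Progenitor, in 185.

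In each of the 5 paralogue pairs the second gene was more frequent in cells with the first. In CNS Neuron, Lhx5 was found in 163 of 193 cells (84.5%, exact binomial 95% interval 78.6 to 89.3) with Lhx1 and in 16.8% of those without it. At 5000 UMIs per cell these shares were 79.6% and 15.1%. Lhx9 was in 84 of 122 cells (68.9%, exact binomial 95% interval 59.8 to 76.9) with Lhx2 and in 5.12% of the others. Smaller shares held for Isl2 among cells with Isl1, 17 of 86 cells (19.8%) against 0.224%, for Lhx4 among those with Lhx3, 6 of 15 cells (40%) against 1.55%, and for Lmx1b among those with Lmx1a, 7 of 15 cells (46.7%) against 10.3%. Depth bore on these few cells: at 5000 UMIs per cell Isl2 given Isl1 came to 9.33% (7 of 75 cells) against 0% and Lmx1b given Lmx1a to 23.1% (3 of 13 cells) against 8.57%. Lhx4 given Lhx3 came to 66.7% against 1.77%, from 4 of 6 cells, too few to read a rise. Other pairs stood the opposite way. Isl1 was in 11 of 193 cells (5.699%) with Lhx1 against 22.1% without, Lhx1 in 13 of 122 cells (10.7%) with Lhx2 against 43.9%, Isl1 in 5 of 105 cells (4.76%) with Lhx9 against 18.97%, Lmx1b in 7 of 220 cells (3.18%) with Lhx5 against 16.99%, and Isl1 in 3 of 60 cells (5%) with Lmx1b against 17.6%. At 5000 UMIs per cell these 5 shares were 0 to 5.94% against 13.1 to 36.5%. They were lower with the first gene in each suspension. Lhx4 was not raised among cells with Isl1 here, at 2 of 86 cells (2.33%) against 2.69%, and 1.33% against 2.73% at 5000 UMIs per cell. Of the 14 pairs read, Lhx1 and Lhx5, Lhx2 and Lhx9, Lhx3 and Lhx4, Lmx1a and Lmx1b, and also Isl1 and Lhx3 (4 of 86 cells (4.65%) against 2.47%, and 1.33% against 1.14% at 5000 UMIs per cell), were higher in each suspension that had the first gene. Isl2 was higher with Isl1 in 3 of the 4, with 0 of 16 cells in F1_1. These shares are descriptions over cells of 4 suspensions, and the depths of cells with and without the first gene could differ (14558.5 and 10518.5 gene UMIs for Isl1, and for Lhx1 medians of 10511 and 11037 gene UMIs with and without it).

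The pairs were read again in Neuroectoderm/Glia after the data were seen. Lhx5 was in 213 of 257 cells (82.9%) with Lhx1 against 10.6%, and Lhx9 in 99 of 113 cells (87.6%) with Lhx2 against 6.43%. Lmx1b was in 17 of 21 cells (80.95%) with Lmx1a against 5.61%. Of the motor neuron combination, Lhx4 was in 14 of 18 cells (77.8%) with Lhx3 against 2.69%, in 9 of 15 cells (60%) with Isl2 against 3.696%, and in 10 of 50 cells (20%) with Isl1 against 3.76%. The last 2 were higher in 3 of the 4 suspensions, with no such cell in F0_8. Lhx3 itself was in 5 of 15 cells (33.3%) with Isl2 against 2.67% and in 5 of 50 cells (10%) with Isl1 against 2.88%, higher in 2 of the 4 suspensions in each case. Cells with Isl2 were deeper than those without (18711 and 11304 gene UMIs at the median), and at 5000 UMIs per cell Lhx4 given Isl2 came to 44.4% (4 of 9 cells) against 2.92%. The 5 paralogue pairs were higher with the first gene in each suspension, and 4 of the 14 pairs in none.

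**Figure D3:**
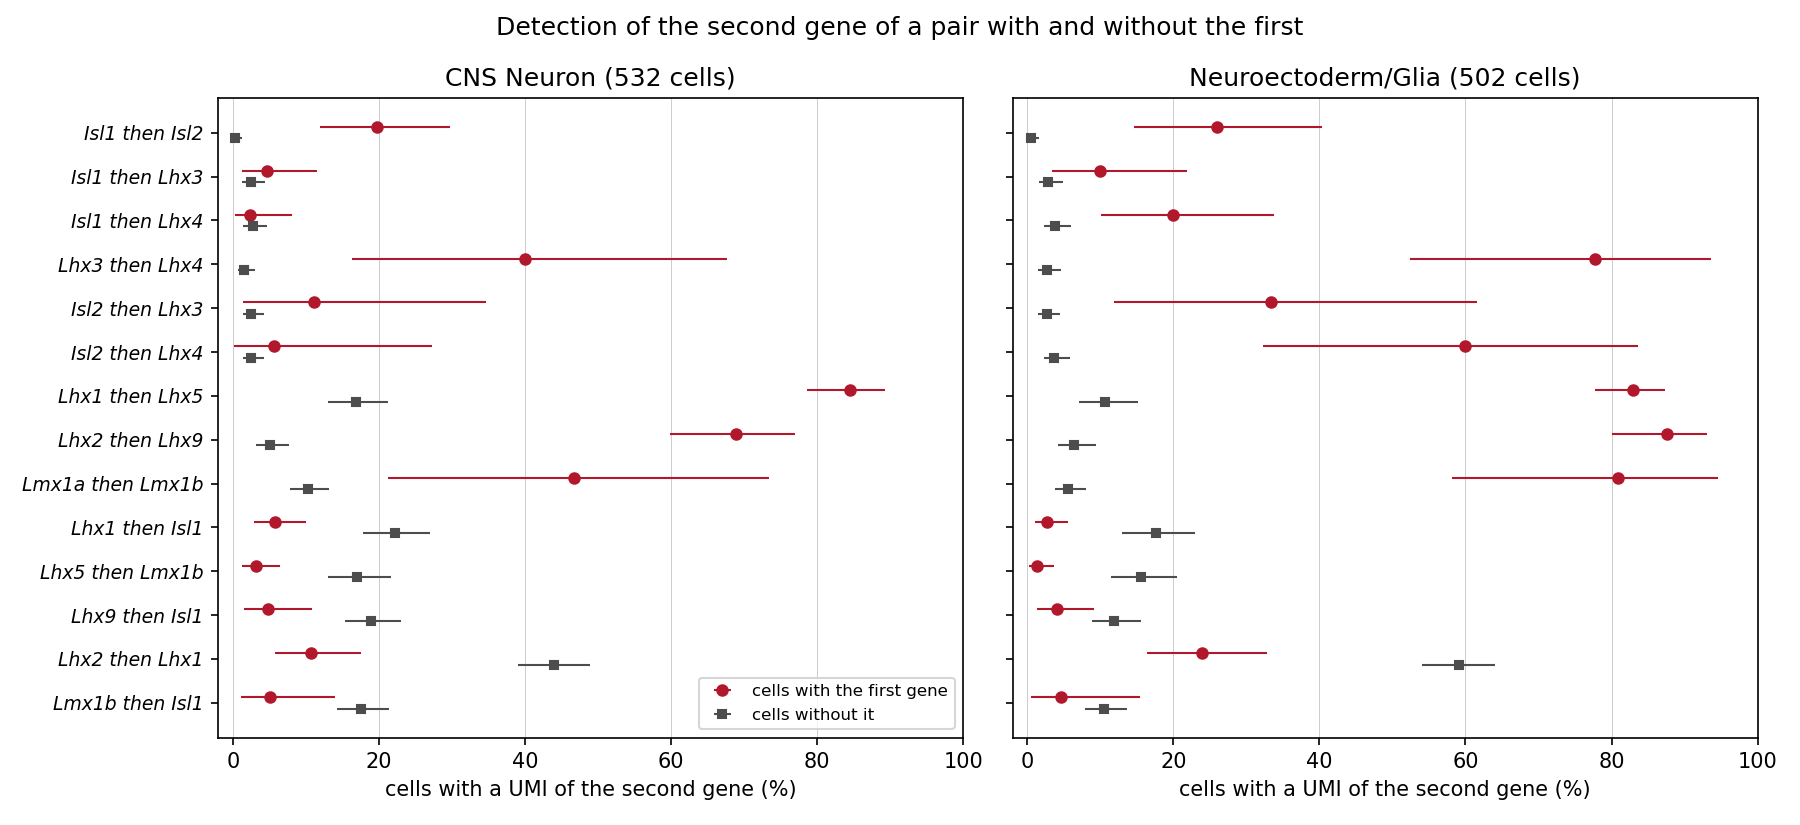
Share of cells with the second gene (percent, horizontal axis) among cells with and without the first, for 14 pairs of LIM homeodomain genes in CNS Neuron and Neuroectoderm/Glia, with exact binomial 95% intervals as bars. The paralogue pairs are separated upward, to 84.5% against 16.8% for Lhx5 given Lhx1 in CNS Neuron, and 5 pairs across paralogue groups, such as Isl1 given Lhx1, lie the other way in CNS Neuron, while pairs of Isl1 or Isl2 with Lhx4 lie upward in Neuroectoderm/Glia, and Lhx4 given Isl1 does not in CNS Neuron (2.33% against 2.69%).

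In mesenchyme Lhx2 and Lhx9 were also found together. Lhx9 was in 79 of 111 cells (71.2%, exact binomial 95% interval 61.8 to 79.4) with Lhx2 in Myoblast/Cardiomyocyte against 5.63% without, in 45 of 59 cells (76.3%) in Mesodermal Progenitor against 11.2%, and in 33 of 63 cells (52.4%) in Gut Mesenchyme/Amniotic Mesoderm against 9.33%. In Chondrocyte it was in 2 of 13 cells (15.4%), too few for a statement. Lmx1b was in 42 of 109 cells (38.5%) with Lhx9 in Myoblast/Cardiomyocyte against 6.54% (18.4% against 4.96% at 5000 UMIs per cell), whereas Lhx9 was in 5 of 64 cells (7.81%) with Isl1 there against 17.9%. The shares of Lhx9 with and without Isl1 were 3.64% against 14.2% in Gut Mesenchyme/Amniotic Mesoderm and 17.6% against 19.0% in Mesodermal Progenitor. In Chondrocyte they were 5.88% (1 of 17 cells) against 4.30%, so the lower share did not hold in every mesenchymal type.

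The cofactors are given for the 12 deep types. Ldb1, the adaptor of the LIM domain, was broad, from 0.896 in Neuroectoderm/Glia and 0.895 in CNS Neuron to 0.187 in Erythrocyte. Ldb2, its relative, was highest among them in Gut Mesenchyme/Amniotic Mesoderm (2.42), and stood at 4.72 in the shallow type Hepatocyte. Of the LIM-only genes, Lmo1 stood at 1.05 in CNS Neuron (0.565 to 1.35 over the suspensions) and 0.805 in Neuronal Progenitor (0.576 to 1.16), which overlap. Lmo4 stood at 2.93 in Ependymal Cell (2.19 to 4.99) and 2.33 in Epithelial Cell (1.93 to 2.83), which overlap too, and at 1.12 to 1.41 in the 4 mesenchymal types. Lmo3 stood at 0.809 in Neuroectoderm/Glia (0.481 to 1.23), overlapping Ependymal Cell (0.183 to 0.615), and Lmo2, a blood and endothelial factor, was highest in Erythroblast (3.76). Ssbp3 and Ssbp2, which stabilise Ldb1, were highest in CNS Neuron (6.86) and in Gut Mesenchyme/Amniotic Mesoderm (4.54), while the shallow types reached 11.498 for Ssbp3 in Midgut and 6.999 for Ssbp2 in Hepatocyte. The range of Ssbp2 in Gut Mesenchyme/Amniotic Mesoderm (3.80 to 4.90) overlapped that in Mesodermal Progenitor (2.83 to 3.89). Rlim, the ubiquitin ligase of the complex, stood at 1.24 in Gut Mesenchyme/Amniotic Mesoderm and 1.21 in Mesodermal Progenitor, with overlapping ranges. Ssbp4 was at 1.19 in Hematoendothelial Progenitor/Endothelium and 0.964 in Gut Mesenchyme/Amniotic Mesoderm, whose ranges overlap too. Of the family genes outside the 10 members, Lhx6 stood at 0.07195 in CNS Neuron and Lhx8 at 0.1698 in Neuroectoderm/Glia and 0.168 in Myoblast/Cardiomyocyte. Lmo1 was the cofactor that met the companion rule for members in mesenchyme, beside Lhx2 in Myoblast/Cardiomyocyte (0.348 against 0.0554) and Lhx9 in Mesodermal Progenitor.

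Across the 12 deep types the pattern of each member was set beside 12045 genes with 200 or more UMIs, by Pearson's r of log2(level + 0.1), as a description over 12 types that share a library. The nearest were Sim1 (r = 0.945) for Isl1, Hs3st5 (r = 0.9705) for Isl2, Neurod6 (r = 0.997) for Lhx1, Lrrn1 (r = 0.978) for Lhx2, Sox14 (r = 0.9901) for Lhx3, Dscaml1 (r = 0.994) for Lhx4, Syp (r = 0.998) for Lhx5, Synpr (r = 0.935) for Lhx9, Tmco6 (r = 0.794) for Lmx1a and Gdf11 (r = 0.942) for Lmx1b. Among the members themselves Lhx1 and Lhx5 stood at 0.972, Lhx3 and Lhx4 at 0.942 and Isl1 and Isl2 at 0.925, Lhx2 and Lhx9 at 0.701, and Lmx1a and Lmx1b at 0.0223. The value of the last pair is the lowest of the 5.

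Founder and F1 suspensions were then compared within cell types, with the UMIs of each gene summed per suspension and type and tested with edgeR's quasi-likelihood test over all genes of the type, 2 suspensions against 2. Nothing pairs these suspensions, and each founder or F1_1 is 1 embryo, so that the p-values measure the spread between suspensions. In sums, fewer cells that use a gene and less RNA of it per cell cannot be told apart. The members had 51 tests in 11 types. Of these 5 were called at an adjusted p under 0.05 against 0.752% of 99241 tests over all genes, and the median log2 difference of the member tests was 0.00, with 26 above 0 and 25 below. The count was 11 without F0_9, 8 without F1_mix, 2 by DESeq2 and 15 (of 116 member tests) without a filter on low counts. The share of all genes called moved as well, to 1.48%, 1.44%, 0.432% and 1.67% in that order. At an unadjusted p under 0.05 there were 14 of the 51 (27.5%), against 10.2% of all genes tested. No member was called in CNS Neuron (0.777% of genes called, 10 members tested), Mesodermal Progenitor (1.07%, 4 tested), Ependymal Cell (0.0134%, 3 tested), Myoblast/Cardiomyocyte (0%, 4 tested), Epithelial Cell (0%, 2 tested), Hepatocyte (0.0679%, 2 tested) and Midgut (1.79%, 3 tested), and in Foregut (1.68%) and Endodermal Progenitor (0%) none had enough UMIs for a test.

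Lhx2 was higher in founders in Neuronal Progenitor. Its level was 3.56 (F0_8) and 1.99 (F0_9) in founders and 0.813 (F1_1) and 0.895 (F1_mix) in F1, so that both founders lay above both F1 suspensions. The log2 difference of founders minus F1 was 1.67 (SE 0.23, n = 2 and 2, adjusted p = 0.0267) by edgeR, in a type where 0.656% of genes were called. The cells with a UMI were 74 of 147 cells in F0_8, 38 of 134 cells in F0_9, 30 of 150 cells in F1_1 and 34 of 166 cells in F1_mix. The forebrain and eye list, whose genes accompanied Lhx2 in this type, summed to 3.295 (F0_8) and 2.28 (F0_9) in founders and 1.899 (F1_1) and 1.43 (F1_mix) in F1, with 1 of its 5 tested genes called, Emx2 at 1.66 (SE 0.21, n = 2 and 2, edgeR adjusted p = 0.0198), and a median of 0.68 against -0.01 over all genes. The part that the share of forebrain cells in each suspension has in the result was not tested.

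Isl1 was lower in founders in Neuroectoderm/Glia. The levels given before (0.5699 (F0_8) and 0.382 (F0_9) in founders and 1.76 (F1_1) and 1.55 (F1_mix) in F1) do not overlap between founders and F1, and the log2 difference was -1.79 (SE 0.18, n = 2 and 2, adjusted p = 0.005596) by edgeR, where 1.15% of genes were called. It was found in 10 of 164 cells in F0_8, 11 of 151 cells in F0_9, 9 of 79 cells in F1_1 and 20 of 108 cells in F1_mix. The motor neuron and sensory ganglion lists had lower sums in founders too, and the forebrain and eye list a higher one. The motor neuron list summed to 0.177 (F0_8) and 0.353 (F0_9) in founders and 0.707 (F1_1) and 0.788 (F1_mix) in F1, with 0 of 4 tested genes called by edgeR (2 at an unadjusted p under 0.05) and a median log2 of -1.45. The sensory ganglion list summed to 0.898 (F0_8) and 1.78 (F0_9) in founders and 4.36 (F1_1) and 3.43 (F1_mix) in F1, with 0 of 4 called (3 at an unadjusted p under 0.05) and a median of -1.60. The forebrain and eye list summed to 2.18 (F0_8) and 1.59 (F0_9) in founders and 1.24 (F1_1) and 1.02 (F1_mix) in F1, with 0 of 4 called and a median of 0.75. Beside Isl1 in this cluster, 2 of 2 readable genes of that list had met the companion rule, against 1 of 2 motor neuron and 0 of 1 sensory ganglion genes. In this type 1348 of 9901 genes had an unadjusted p under 0.05. In the dorsal excitatory list 1 of 4 was lower, Tlx3 at -1.41 (SE 0.18, n = 2 and 2, edgeR adjusted p = 0.0154), and the family gene Lhx8 was lower at -1.93 (SE 0.34, n = 2 and 2, edgeR adjusted p = 0.04504). Isl2, at 0.0108 (F0_8) and 0.0579 (F0_9) in founders and 0.242 (F1_1) and 0.204 (F1_mix) in F1, had -2.70 (SE 0.53, n = 2 and 2, adjusted p = 0.0627) in the same edgeR fit and was not called. In CNS Neuron the difference of Isl1 had the other sign, 0.49 (SE 0.18, n = 2 and 2, adjusted p = 0.371) by edgeR, and was not called. The part of the makeup of the cluster in the result was not tested.

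In Gut Mesenchyme/Amniotic Mesoderm, where 1.62% of genes were called, Lhx9 and Lmx1b were higher in founders. Lmx1b, at the levels printed before, had 1.28 (SE 0.20, n = 2 and 2, adjusted p = 0.0122) by edgeR and was found in 43 of 259 cells in F0_8, 31 of 171 cells in F0_9, 12 of 97 cells in F1_1 and 18 of 147 cells in F1_mix. Lhx9 had 0.98 (SE 0.20, n = 2 and 2, adjusted p = 0.0464) by edgeR and was found in 41 of 259 cells in F0_8, 27 of 171 cells in F0_9, 8 of 97 cells in F1_1 and 14 of 147 cells in F1_mix. In both genes the founders lay above the F1 suspensions without overlap. Both calls depended on single suspensions and on the tool: without F0_8 the edgeR adjusted p was 0.105 for Lmx1b and 0.07004 for Lhx9, without F0_9 it was 0.199 and without F1_mix 0.0958 for Lhx9, and DESeq2 gave adjusted p of 0.124 and 0.3802. With 1 suspension left in an arm, the other arm alone gives the spread. The log2 difference itself ran over the left-out suspensions from 1.12 to 1.41 for Lmx1b and from 0.80 to 1.16 for Lhx9. The limb mesenchyme list summed to 9.01 (F0_8) and 8.12 (F0_9) in founders and 6.18 (F1_1) and 7.49 (F1_mix) in F1 (0 of 7 called by edgeR, 2 at an unadjusted p under 0.05 against 1325 of 11099 genes of the type, median 0.53). The gonad and coelomic epithelium list summed to 0.447 (F0_8) and 0.492 (F0_9) in founders and 0.716 (F1_1) and 1.35 (F1_mix) in F1, with 2 of 4 lower in founders, Wt1 at -1.99 (SE 0.28, n = 2 and 2, edgeR adjusted p = 0.00782) and Gata4 at -1.72 (SE 0.31, n = 2 and 2, edgeR adjusted p = 0.0237). The gut mesenchyme list summed to 1.23 (F0_8) and 0.807 (F0_9) in founders and 1.51 (F1_1) and 2.36 (F1_mix) in F1, with 1 of 3 tested lower in founders, Foxf1 at -1.59 (SE 0.27, n = 2 and 2, edgeR adjusted p = 0.0203), and a median of -0.83. In the nephric list Wt1, shared with the gonad list, was the 1 of 3 called. Their part in the results was not tested.

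In Chondrocyte, where 1.16% of genes were called, Lhx2 was lower in founders, from 44 UMIs in 13 of 296 cells. Its level was 0.0106 (F0_8) and 0.0652 (F0_9) in founders and 0.2304 (F1_1) and 0.219 (F1_mix) in F1, and the log2 difference was -2.54 (SE 0.57, n = 2 and 2, adjusted p = 0.0472) by edgeR, and between -4.22 (without F0_9) and -1.78 (without F0_8) with a suspension left out. The cells were 1 of 88 cells in F0_8, 3 of 82 cells in F0_9, 6 of 56 cells in F1_1 and 3 of 70 cells in F1_mix. In F1_mix a single cell held 17 of the 19 UMIs, and without it the level there was 0.0235, between those of the founders, a value with no test that was chosen after the data were seen. This call was lost without F0_8 (edgeR adjusted p = 0.346), without F1_1 (0.0906), without F1_mix (0.0563), without a filter on low counts (0.4904) and without cells of high mitochondrial share (0.0715), and DESeq2 gave no adjusted p for it. Lhx2 thus had opposite signs in Neuronal Progenitor and in Chondrocyte, and that difference was not tested. None of the cofactors tested in the 4 types with a called member was called (7 of the 10 were tested in Chondrocyte, and all 10 in the others). The calls of Lhx2 in Neuronal Progenitor and of Isl1 in Neuroectoderm/Glia were kept in every alternative run.

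**Figure D4:**
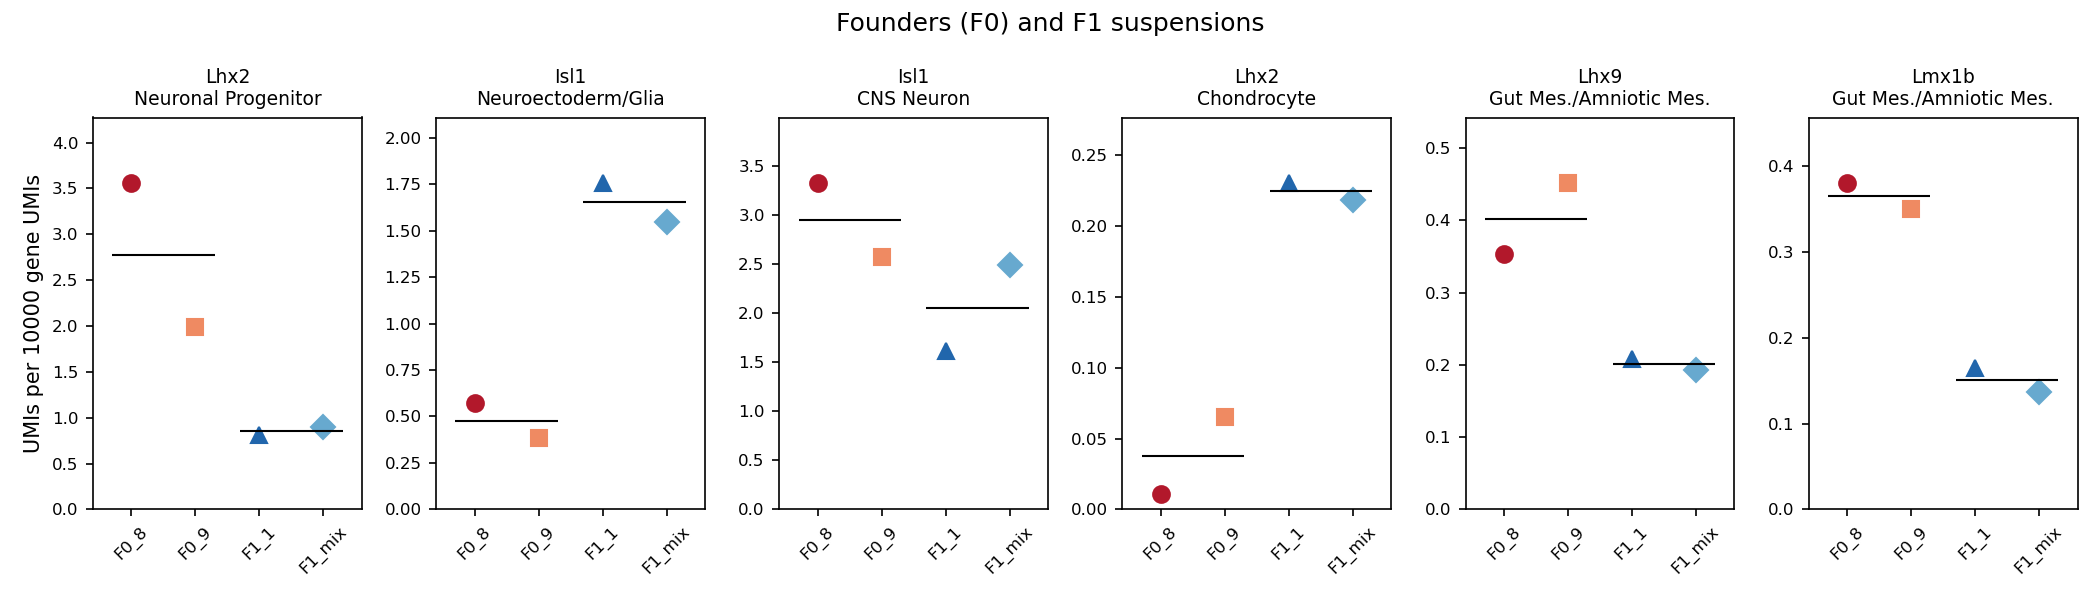
Level (UMIs per 10000 gene UMIs, vertical axis) of LIM homeodomain genes in F0_8, F0_9, F1_1 and F1_mix for the 5 called differences and for Isl1 in CNS Neuron, with lines at the mean of the 2 suspensions of each kind. Founders lie above F1 for Lhx2 in Neuronal Progenitor and for Lhx9 and Lmx1b in Gut Mesenchyme/Amniotic Mesoderm, and below it for Isl1 in Neuroectoderm/Glia and Lhx2 in Chondrocyte, while for Isl1 in CNS Neuron, which was not called, F0_9 and F1_mix lie side by side.

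The shallow types were set beside barcodes of low depth. In Hepatocyte Lmx1b was at 1.33 UMIs per 10000 (95% Poisson interval 1.13 to 1.55), in Midgut at 1.02, where Lhx1 was at 1.36 and Lhx4 at 0.396 from 16 UMIs. For Lmx1b these stand above every deep type. That of Lhx4 came to 0.283 to 0.509 with a suspension left out, which takes in the 0.408 of F1_mix in Neuroectoderm/Glia. The barcodes of 100 to 300 gene UMIs, whose share of free RNA was not tested, had Lmx1b at 0.559, Lhx1 at 0.776 and Lhx4 at 0.0927. Those of under 100 gene UMIs had them at 0.233, 0.233 and 0.0405, so that the background depends on the depth taken. The barcodes of 100 to 300 gene UMIs also had Isl1 at 0.624, Lhx2 at 0.709, Lhx9 at 0.577, Lhx5 at 0.419 and Lmx1a at 0.212. With 23.0 to 55.9% mitochondrial UMIs at the median and markers that did not follow their names, no use of a member was read from these types.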

How the data were processed

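Single-cell RNA libraries of E11.5 embryos were analysed from the UMI counts that the authors deposited per suspension, made per the file headers with Cell Ranger 7.2.0, and per the methods against GRCm38 with EGFP added. The authors' cell table gave the cell type of 5678 of 6006 barcodes. The authors had removed doublets and ambient RNA for their annotation, and the counts used here were the uncorrected ones, with no doublet caller run. The oligo counts were not used beyond the authors' assignment, and 20 further per-sample columns were left out. Counts were summed per cell type and suspension in Python 3.11.15 (scipy 1.17.1, pandas 2.3.3 and numpy 2.4.6) and drawn with matplotlib 3.10.9. The suspensions held 16052917 to 19160116 UMIs in 1310 to 1599 cells, and no barcode was shared between them. To compare shares of cells across depths, cells were thinned to 5000 UMIs, leaving out shallower ones (1 to 17 of each deep type, except Erythrocyte with 0).

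Founders and F1 were compared in the 13 types with at least 20 cells per suspension by edgeR 4.0.16 (filterByExpr, TMM, quasi-likelihood, Benjamini-Hochberg adjustment over all genes of a type) in R 4.3.3, with DESeq2 1.42.0 as an alternative. All members were described. Companions were the up to 6 genes of highest ratio under the stated rule, read in the neural and the mesenchymal type where a member was highest and had at least 50 cells. Further sets were added after the data were seen. They were Isl1 in Neuroectoderm/Glia, Gut Mesenchyme/Amniotic Mesoderm and Epithelial Cell, and Lhx2 in Neuronal Progenitor. The others were Lhx9 and Lmx1b in Gut Mesenchyme/Amniotic Mesoderm, and Lmx1a in Ependymal Cell with 43 cells. A few genes of the lists and rules are not reported here. The members, lists and rules were chosen with earlier results of these data known. Alternatives were other denominators, mitochondrial limits, weights, filters and tools, and leaving out each suspension.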

Additional observations from a re-analysis of the deposited data

Results flagged for a closer look

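The founder effect on Isl1 differed between the neuron clusters. The log2 difference of founders minus F1 in Neuroectoderm/Glia less that in CNS Neuron was -2.29 (SE 0.25, adjusted p = 0.0199 by an edgeR interaction over 10513 genes, of which 13 were called). Both clusters come from the same 4 suspensions, and each suspension was a term of the model. The founders were lower in both suspensions in Neuroectoderm/Glia and higher in both in CNS Neuron. The interaction was chosen after the results per type had been seen.

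A further 328 barcodes had been assigned to a suspension but had no cell type, with a median of 859 gene UMIs. They held 4 or more UMIs, which is past the limit that a count of 0 allows and says no more than that the gene was found, for 8 of the 10 genes: Isl1 at a level of 0.668, Lhx1 at 0.238, Lhx2 at 0.668, Lhx4 at 0.0226, Lhx5 at 0.266, Lhx9 at 0.362, Lmx1a at 0.323 and Lmx1b at 0.277 UMIs per 10000. Isl2 and Lhx3 had 2 UMIs each. Barcodes of 100 to 300 gene UMIs in the whole library had the 10 genes at 0.0274 to 0.776, and of the 8 genes all but Isl1 (0.624) and Lmx1a (0.212) were higher there.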

How the results depend on the processing

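With mitochondrial UMIs out of the denominator Lmx1b in Hepatocyte came to 1.62. With cell types weighted equally the neural share was 82.6% for Isl1, 66.3% for Lhx9, 95.05% for Lmx1a and 46.2% for Lmx1b. Against 5 members called in the founder comparison, DESeq2 called 2, and 15 were called without a filter on low counts. Leaving out single suspensions gave 5 to 11, with 11 without F0_9 and 8 without F1_mix. Over all genes 746 were called, 429 by DESeq2 and 3154 without the filter. The causes were not tested. The other 151 alternatives of levels, shares and counts, with companion genes counted over all sets together, stayed within their spread or 1.5 times the count, and no value changed sign. Single companion sets moved further. That of Lmx1b in CNS Neuron went from 59 to 0 without F0_8, F1_1 or F1_mix, and that of Isl1 in Myoblast/Cardiomyocyte from 25 to 0 at 2 or more UMIs, since 3 suspensions with 10 cells each are required. Fewer suspensions to meet the rule raised others, Isl1 in Myoblast/Cardiomyocyte to 38 without F1_1, Lhx5 in CNS Neuron from 84 to 127 without F0_8 and 130 without F1_1, and Lhx9 in Neuroectoderm/Glia from 52 to 81 without F1_mix. Of 45 alternatives for the 5 called members 12 lost the call, all for Lhx2 in Chondrocyte or for Lhx9 and Lmx1b in Gut Mesenchyme/Amniotic Mesoderm. The limit on mitochondrial share left too few cells to read the shallow types. No paired analysis was possible because the suspensions come from different embryos with numbers that pair nothing. Depth limits Lhx3, Lhx4 and Isl2, each with under 300 UMIs in all.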

Other observations

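Some member UMIs lay in 1 suspension. In Epithelial Cell 27 of 28 UMIs of Lhx2 were in F0_8, in 3 of its 29 cells. In CNS Neuron Lmx1a had 30 UMIs in F0_8 and 0 in F0_9 among the founders, and 3 in F1_1 against 35 in F1_mix. In Neuronal Progenitor Lhx3 had 0, 0, 4 and 16 UMIs in F0_8, F0_9, F1_1 and F1_mix, in 9 cells.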
